A study of Rattus norvegicus with 138 samples.

Results

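The 10 circadian clock genes Arntl, Clock, Per1, Per2, Per3, Cry1, Cry2, Nr1d1, Nr1d2 and Dbp were followed in the brainstem of female rats of the spontaneously hypertensive strain (SHRs) and of the Wistar-Kyoto strain (WKY rats). They were taken by symbol as 10 of the 32883 genes in each count table, and all 10 passed the filter on low expression in each nucleus studied: the nucleus tractus solitarii (NTS), the caudal ventrolateral medulla (CVLM) and the rostral ventrolateral medulla (RVLM). These nuclei relay and set sympathetic drive to the heart and vessels. The SHR is an inbred strain that becomes hypertensive with age, and the WKY rat is its normotensive control strain.

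RNA was sequenced from 46 rats, with 1 library per nucleus and rat. The WKY rats (WKY/NHsd) numbered 5 at 8 wk, 4 at 10 wk, and 3 each at 12, 16 and 24 wk of age. The SHRs (SHR/NHsd) numbered 5 at 8 wk, 5 at 10 wk, and 6 each at 12, 16 and 24 wk. No rat was treated, no allele was engineered, and every rat was female and housed alone. The rats were decapitated under isoflurane, and left and right punches of 1 rat were put together as 1 sample. The hour of killing was not given in the sources used here, so no value below can be placed on a time-of-day axis.

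The clock is a feedback loop of transcription that runs in nearly every cell. The activators ARNTL (also called BMAL1) and CLOCK bind E-box elements and switch on the Per, Cry, Nr1d and Dbp genes. The PER and CRY proteins then shut the activators down, REV-ERB proteins from Nr1d1 and Nr1d2 repress Arntl, and DBP drives output genes through D-box elements. In clock tissues the transcripts of Dbp, the Per genes and the Nr1d genes cycle over the day, out of phase with Arntl.

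The promoter sequences below show where these elements sit for members that the results turn on. Arntl stands at the start of the loop, and Per2 and Nr1d1 hold matches to clock elements. Nr1d2 and Dbp, together with Cry1, had the widest spread among rats of the same strain and age. The sequences are from RefSeq, build GRCr8, and run from 250 bases before to 50 bases after the start of transcription. They are read in the direction of the gene, and capitals mark a match. The counts were made on an earlier rat build, and no coordinate was carried between the builds. The windows are chr1:176766078-176766377 (+ strand) for Arntl, listed there as Bmal1, chr9:99496944-99497243 (- strand) for Per2, chr10:84229405-84229704 and chr10:84231763-84232062 (- strand) for Nr1d1, chr15:9954784-9955083 (+ strand) for Nr1d2 and chr1:105312006-105312305 (+ strand) for Dbp.
Arntl promoter: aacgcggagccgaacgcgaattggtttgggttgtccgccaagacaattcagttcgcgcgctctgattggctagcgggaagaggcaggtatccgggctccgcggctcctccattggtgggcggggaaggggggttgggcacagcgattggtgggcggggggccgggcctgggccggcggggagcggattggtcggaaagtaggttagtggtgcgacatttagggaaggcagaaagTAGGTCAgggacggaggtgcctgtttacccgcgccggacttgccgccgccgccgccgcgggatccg
Per2 promoter: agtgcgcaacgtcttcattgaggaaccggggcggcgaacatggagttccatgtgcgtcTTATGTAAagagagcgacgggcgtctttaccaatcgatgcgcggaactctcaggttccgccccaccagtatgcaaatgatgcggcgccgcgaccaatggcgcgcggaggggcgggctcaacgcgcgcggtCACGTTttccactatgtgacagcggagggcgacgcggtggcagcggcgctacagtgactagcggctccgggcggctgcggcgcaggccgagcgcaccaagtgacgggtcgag
Nr1d1 first promoter: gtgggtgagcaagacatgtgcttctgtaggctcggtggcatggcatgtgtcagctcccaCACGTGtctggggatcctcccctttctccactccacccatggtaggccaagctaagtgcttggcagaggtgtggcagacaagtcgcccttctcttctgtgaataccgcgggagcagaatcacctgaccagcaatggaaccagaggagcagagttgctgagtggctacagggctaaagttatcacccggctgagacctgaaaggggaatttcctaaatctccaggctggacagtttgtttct
Nr1d1 second promoter: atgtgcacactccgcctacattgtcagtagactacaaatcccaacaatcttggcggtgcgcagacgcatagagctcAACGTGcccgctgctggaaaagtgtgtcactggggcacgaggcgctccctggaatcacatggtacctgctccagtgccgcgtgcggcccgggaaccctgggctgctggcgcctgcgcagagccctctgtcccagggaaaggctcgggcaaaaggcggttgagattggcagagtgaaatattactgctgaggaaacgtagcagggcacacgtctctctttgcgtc
Nr1d2 promoter: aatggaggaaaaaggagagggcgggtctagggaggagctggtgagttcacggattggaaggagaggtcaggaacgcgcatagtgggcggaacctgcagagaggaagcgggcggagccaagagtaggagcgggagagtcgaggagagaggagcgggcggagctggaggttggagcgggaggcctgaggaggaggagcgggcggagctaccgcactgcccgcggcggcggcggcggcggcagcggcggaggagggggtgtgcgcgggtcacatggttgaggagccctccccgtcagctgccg
Dbp promoter: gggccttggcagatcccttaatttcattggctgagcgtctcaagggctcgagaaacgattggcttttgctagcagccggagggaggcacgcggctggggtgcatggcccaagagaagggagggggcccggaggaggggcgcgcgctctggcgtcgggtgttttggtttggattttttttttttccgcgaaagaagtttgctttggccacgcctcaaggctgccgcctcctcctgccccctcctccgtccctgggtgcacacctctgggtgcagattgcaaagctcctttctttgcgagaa

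The elements searched, on both strands, were the E-box CACGTG, its variant the E-prime-box CACGTT, the D-box TTATGTAA, the cyclic AMP response element TGACGTCA and the ROR/REV-ERB element TAGGTCA, none of which overlapped another in these windows. Arntl held the ROR/REV-ERB element 16 bases before its start, an element present in 2.63% of 33469 promoters of the same length. Per2 held the E-prime-box 62 bases before its start and the D-box 192 bases before it, elements found in 4.83% and 0.89% of all promoters. The first Nr1d1 promoter held the E-box 191 bases before its start, found in 6.42% of all promoters, and the second held the E-prime-box, on the other strand, 174 bases before it. The Cry2 promoter also held the E-prime-box, 212 bases before its start. The windows of Nr1d2, Dbp, Clock, Per1 and Per3 held none of these letters, and the cyclic AMP response element, present in 1.83% of all promoters, was in none of the members' 11 windows. The table of promoters matched 9 of the 10 members, without Cry1. A match is a run of letters in this window and no measure of binding, and a window without one says nothing of elements elsewhere in the gene.

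The smallest library held 5904581 counts, the largest 17889417 and the median library 10143036.5. Levels are given as CPM, the share of a library's counts taken to a common total and scaled between libraries by the trimmed mean of M-values. The catecholamine genes that mark neurons of these nuclei were present: the median level of Pnmt, which makes adrenaline, was 40.8 CPM in the CVLM, 18.6 CPM in the RVLM and 3.92 CPM in the NTS. A summed level of 6 choroid plexus markers, which should be low in these punches, ran from 3.28 to 4596 CPM in the NTS of WKY rats and from 3.5 to 12.2 CPM in that of SHRs, and its part in the results was not tested beyond leaving out 28 of the 46 rats 1 at a time (those in groups of at most 5, all WKY rats among them). The library names end in a number, 1 or 2, whose meaning was not given: 14 of the 46 rats carried number 2, namely all 9 rats at 10 wk, 3 of the 5 WKY rats at 8 wk, and 1 SHR each at 12 and 24 wk. For 2 CVLM libraries, WKY 8 wk replicate 5 and SHR 8 wk replicate 5, the title and the age label disagreed, and both were placed at 8 wk by title. Fewer cells of a type and less RNA per cell cannot be told apart in such punches.

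The first comparison asked whether clock transcripts differ between the hypertensive and the control strain. Averaged over the 5 ages, 1 of 30 values (10 genes in 3 nuclei) passed the test, and every 95% interval of the fold lay inside a 2-fold change. That value was Per2, a repressor of the loop, in the RVLM. The same test called 11.2% of all NTS genes, 12.3% of CVLM genes and 10.8% of RVLM genes. A gene was called when the Benjamini-Hochberg adjusted p of edgeR's quasi-likelihood test, taken over all genes of the nucleus, was under 0.05. The library number was not a term in this test, and at 8 wk 3 of the 5 WKY rats and none of the SHRs carried number 2. A mean over ages can also join differences of opposite sign. Nr1d2 in the NTS differed by -1.19 (SE 0.44) at 8 wk and 0.71 (SE 0.51) at 24 wk, neither called, and by 0.03 (SE 0.21) on average.

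Per2 in the RVLM was lower in WKY rats at every age on average, with values that overlapped at most ages. At 8 wk the WKY libraries held 6.31, 6.99, 3.57, 6.63 and 7.35 CPM and the SHR libraries 5.1, 9.38, 5.4, 7.81 and 8.61 CPM. At 10 wk the WKY libraries held 7.41, 8.69, 7.88 and 7.25 CPM and the SHR libraries 9.27, 13.6, 10.4, 10.5 and 8.89 CPM, so that every SHR lay above every WKY rat. At 24 wk the WKY libraries held 5.61, 7.69 and 11 CPM, and the 6 SHR libraries ran from 8.08 to 12.6 CPM with a median of 10.1 CPM. The difference averaged over ages was 0.31 on the log2 scale (SE 0.10), a fold of 1.24 with a 95% interval of 1.07 to 1.42 (adjusted p = 0.0419, edgeR). Leaving out 28 rats in turn kept the size between 0.26 and 0.36 but raised the adjusted p above 0.05 for 14 of them, up to 0.105. It was also no longer called with every gene of at least 1 count (0.31) or when number-2 libraries of other ages than 10 wk were dropped (0.27). The same gene differed by 0.14 (SE 0.09, adjusted p = 0.415) in the NTS and by 0.11 (SE 0.10, adjusted p = 0.566) in the CVLM, both in edgeR's test.

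**Figure D1:**
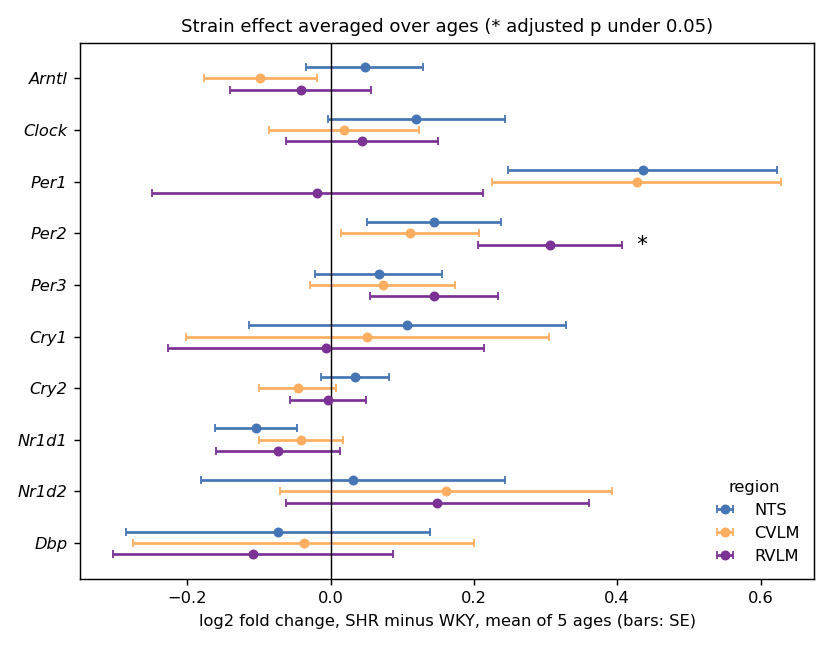
SHR minus WKY difference averaged over the 5 ages, in log2 units on the horizontal axis, for the 10 clock genes in each nucleus; points are estimates and bars 1 SE from edgeR. The 30 values lie between -0.11 and 0.44, and Per2 in the RVLM, at 0.31, is the one that passed the test.

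The other 29 mean differences ran from -0.11 for Dbp in the RVLM to 0.44 for Per1 in the NTS, and the median of all 30 was 0.04. Over all genes tested the medians were 0.0097 (NTS), -0.0030 (CVLM) and 0.0088 (RVLM). Of the 30 intervals, 27 lay inside a 1.5-fold change, and the lowest and highest bounds were 0.697 and 1.79. For the activators, Arntl differed by 0.05 (SE 0.08), -0.10 (SE 0.08) and -0.04 (SE 0.10) in the NTS, CVLM and RVLM. Clock differed by 0.12 (SE 0.12), 0.02 (SE 0.10) and 0.04 (SE 0.11) in the same order. The tightest bounds were those of Cry2, a repressor, whose fold lay between 0.958 and 1.09 in the NTS. The loosest were those of Cry1, which in the CVLM ran from 0.726 to 1.48. At an unadjusted p under 0.05, 3 of the 30 values passed in edgeR and 3 in DESeq2, which called 1 after adjustment. Over all genes, 2926 of 13793 (NTS), 3008 of 13408 (CVLM) and 2862 of 13411 (RVLM) passed at that unadjusted level in edgeR.

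At single ages, 2 of 150 values were called, by edgeR as by DESeq2, with 13 and 14 at an unadjusted p under 0.05. At that unadjusted level edgeR passed 3253, 2448, 1623, 901 and 1804 of 13793 NTS genes from the youngest to the oldest age. In the same order it passed 3005, 1332, 1426, 991 and 3029 of 13408 CVLM genes. Of 13411 RVLM genes it passed 3704, 1045, 864, 742 and 2005. For all genes the share called from the youngest to the oldest age was 5.79, 4.44, 3.1, 1.73 and 2.46% in the NTS, 7.64, 3.18, 2.62, 2.27 and 7.13% in the CVLM, and 9.78, 2.3, 1.7, 1.65 and 2.24% in the RVLM. The values called were Per1 in the NTS at 10 wk and Arntl in the CVLM at 8 wk.

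Per1, a repressor that also answers quickly to stimuli reaching the cell, was low in every library, with 1 to 48 counts. In the NTS at 10 wk the 4 WKY libraries held 0.527, 0.44, 0.396 and 0.619 CPM, from 7, 7, 5 and 11 counts. The 5 SHR libraries held 0.666, 3.34, 3.04, 2.01 and 3.27 CPM, from 9, 46, 48, 33 and 46 counts. The groups did not overlap, although the lowest SHR lay close to the highest WKY rat and the other 4 SHRs stood well above. The WKY mean was 0.496 ± 0.098 CPM (SD, n = 4) against 2.47 ± 1.14 CPM in SHRs (SD, n = 5), a log2 difference of 2.28 (SE 0.42) or 4.85-fold, with a 95% interval of 2.67 to 8.81 (adjusted p = 3.2e-04, edgeR). All 9 rats at 10 wk carried library number 2, so this difference lies within 1 number. It passed the test under all 9 other settings and with each of 28 rats left out. In the other nuclei of the same rats Per1 differed by 0.49 (SE 0.43) in the CVLM and -0.36 (SE 0.47) in the RVLM, and neither passed. At the other ages the WKY rats held 0.569 to 3 CPM of Per1 in the NTS.

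Arntl in the CVLM at 8 wk held 14.9, 18.5, 20.9, 21.1 and 18.8 CPM in WKY rats and 7.33, 14.7, 12.5, 15.7 and 15.6 CPM in SHRs. The lowest WKY library lay inside the SHR range and the other 4 above it. The WKY mean was 18.8 ± 2.5 CPM against 13.2 ± 3.5 CPM in SHRs (SD, n = 5 each), a log2 difference of -0.52 (SE 0.16, adjusted p = 0.0436, edgeR). Of the WKY rats 3, and none of the SHRs, carried number 2 at this age. With the number as a term, or without the number-2 libraries outside 10 wk, the difference no longer passed, and neither did it without the rats of conflicting age label, with the age fitted alone or without 7 of 28 rats left out in turn (the size ranged from -0.59 to -0.34, adjusted p up to 0.199, in edgeR).

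**Figure D2:**
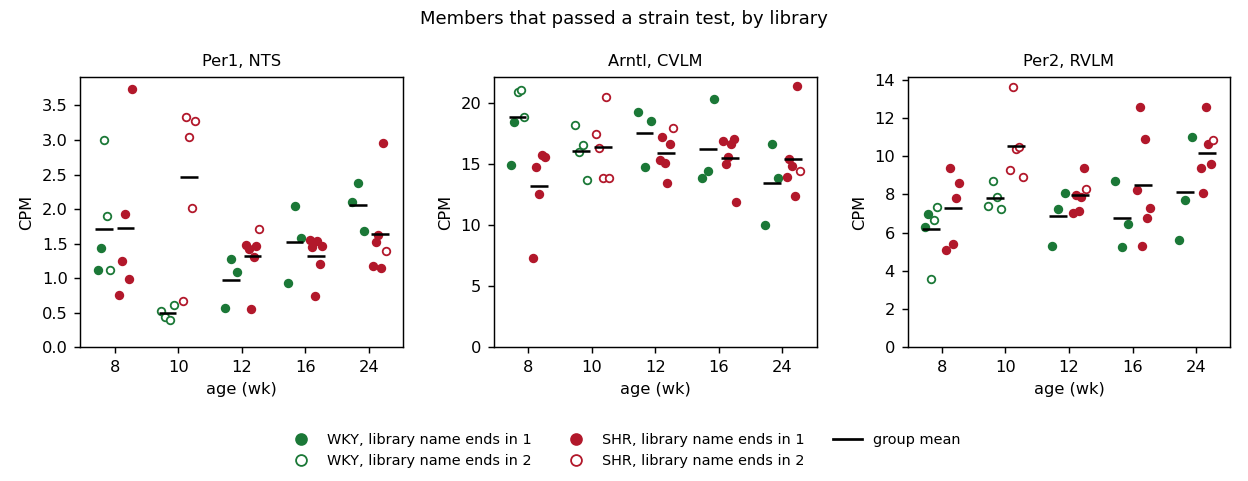
Levels in CPM (vertical axis) of Per1 in the NTS, Arntl in the CVLM and Per2 in the RVLM by age, with 1 point per library, coloured by strain (open points have number 2 at the end of the library name), and bars at the group means. At 10 wk the 4 WKY libraries of Per1 lie at or below 0.619 CPM and the SHR libraries reach 3.34 CPM, while Arntl and Per2 overlap at most ages.

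The ranges of the strains were apart in 6 of 150 comparisons of a member at 1 age in 1 nucleus, against 6.22% of such comparisons over all genes. SHRs were higher for Per1 in the NTS and Per2 in the RVLM at 10 wk, for Per1 and Per2 in the CVLM at 12 wk, and for Cry2 in the NTS at 24 wk. WKY rats were higher for Dbp, the output activator, in the RVLM at 10 wk, with 73.3, 77.5, 76.8 and 90.8 CPM against 58.3, 57.9, 50.3, 62.6 and 58.2 CPM in SHRs. Apart from Per1 in the NTS, none of these passed the test after adjustment.

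The strain difference was not found to depend on age: 0 of 30 interaction tests passed in edgeR, with 2 at an unadjusted p under 0.05, and 0 in DESeq2, with 5. The lowest adjusted p was 0.366 in edgeR's test. Few genes of any kind passed this test, 0.0145% (NTS), 0.0224% (CVLM) and 0.00746% (RVLM). At an unadjusted p under 0.05, 1677 of 13793 (NTS), 1612 of 13408 (CVLM) and 762 of 13411 (RVLM) genes passed in edgeR. With a term for the leading spread among libraries, described below, some interaction tests of members passed. That setting was added after the data were seen, and its count stands in the last section.

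Age was the next comparison, made within each strain. Nr1d2, which encodes the repressor REV-ERB beta, was called in all 3 nuclei of SHRs and in 2 of WKY rats, and it was highest at 10 wk. In all, 4 of 30 values were called in WKY rats and 5 of 30 in SHRs by edgeR, and 7 and 6 by DESeq2. The share of all genes called for WKY rats was 12.5% (NTS), 22.2% (CVLM) and 6.79% (RVLM), and for SHRs it was 18.7%, 20% and 14.1%. The values called in WKY rats were Per1 and Nr1d2 in the NTS, Per1 in the CVLM and Nr1d2 in the RVLM. Those in SHRs were Per2 and Nr1d2 in the NTS, Nr1d1 and Nr1d2 in the CVLM, and Nr1d2 in the RVLM.

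In the NTS of SHRs, Nr1d2 held 36.3, 64.2, 39, 79.5 and 90.6 CPM at 8 wk and 141, 231, 219, 230 and 243 CPM at 10 wk. The 10 wk values lay above all those at 8 wk. At 12 wk the 6 SHR libraries ran from 35.6 to 206 CPM, at 16 wk from 27.2 to 111 CPM and at 24 wk from 24.5 to 106 CPM. The rise from 8 to 10 wk was 1.78 (NTS), 1.90 (CVLM) and 2.06 (RVLM) on the log2 scale (adjusted p = 0.00695, 0.0216 and 0.00895 for the test over all ages, edgeR). WKY rats at 10 wk held 160, 227, 188 and 223 CPM in the NTS, inside the range of SHRs of that age.

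The library number moved with this pattern, since every 10 wk library carried number 2. At other ages, where both numbers occurred, Nr1d2 was mostly higher in number 2. In the NTS of WKY rats at 8 wk the 2 libraries of number 1 held 37.6 and 87.8 CPM and the 3 of number 2 held 188, 223 and 167 CPM. In SHRs at 12 wk the 5 libraries of number 1 ran from 35.6 to 147 CPM in the NTS and the single library of number 2 held 206 CPM, and in the RVLM the values were 24.0 to 79.2 CPM against 159 CPM. There were 2 exceptions where the numbers overlapped: SHRs at 24 wk in the NTS, with 24.5 to 106 CPM in number 1 and 91.6 CPM in number 2, and WKY rats at 8 wk in the RVLM, with 26.0 to 65.2 CPM in number 1 and 54.1 to 137 CPM in number 2. With the number as a term in the same model, libraries of number 2 were higher in Nr1d2 by 1.26, 1.46 and 1.24 on the log2 scale in the NTS, CVLM and RVLM (adjusted p = 0.00933, 0.00434 and 0.00751, edgeR). Clock also was higher in number 2, by 0.77 in the NTS (adjusted p = 0.00404) and 0.57 in the RVLM (adjusted p = 0.0206, edgeR). These were 5 of 30 values, and over all genes the number was called in 25.6% (NTS), 21.6% (CVLM) and 16.4% (RVLM).

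With the number as a term, 0 of 30 values passed the age test in WKY rats and 0 of 30 in SHRs, and with number-1 libraries alone, without 10 wk, the counts were again 0 and 0. The share of all genes called in these fits is not given here, so the counts are not read as particular to the members. Age 10 wk and number 2 cannot be told apart in these libraries except through the 5 number-2 rats of other ages. Dbp was not called for age in any nucleus or strain. Its spread within groups was wide: in the NTS the WKY rats held 16.1, 97.6, 77.8, 99.8 and 113 CPM at 8 wk and 20.7, 58.8 and 18.4 CPM at 24 wk. Nr1d1, the close relative of Nr1d2, was called in the CVLM of SHRs alone. There its log2 differences from 8 wk were -0.13, 0.05, 0.27 and 0.27 at 10, 12, 16 and 24 wk (adjusted p = 0.0251, edgeR). Per2 in the NTS of SHRs was 0.78 higher at 10 wk than at 8 wk and 0.24 to 0.31 higher at the later ages (adjusted p = 0.0268, edgeR). Per1 in the WKY rats was lower at 10 wk by 1.78 in the NTS and lower at 12 wk by 1.51 in the CVLM, log2 differences of -1.78 and -1.51 from 8 wk (adjusted p = 0.0180 and 0.00846 over all ages, edgeR).

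**Figure D3:**
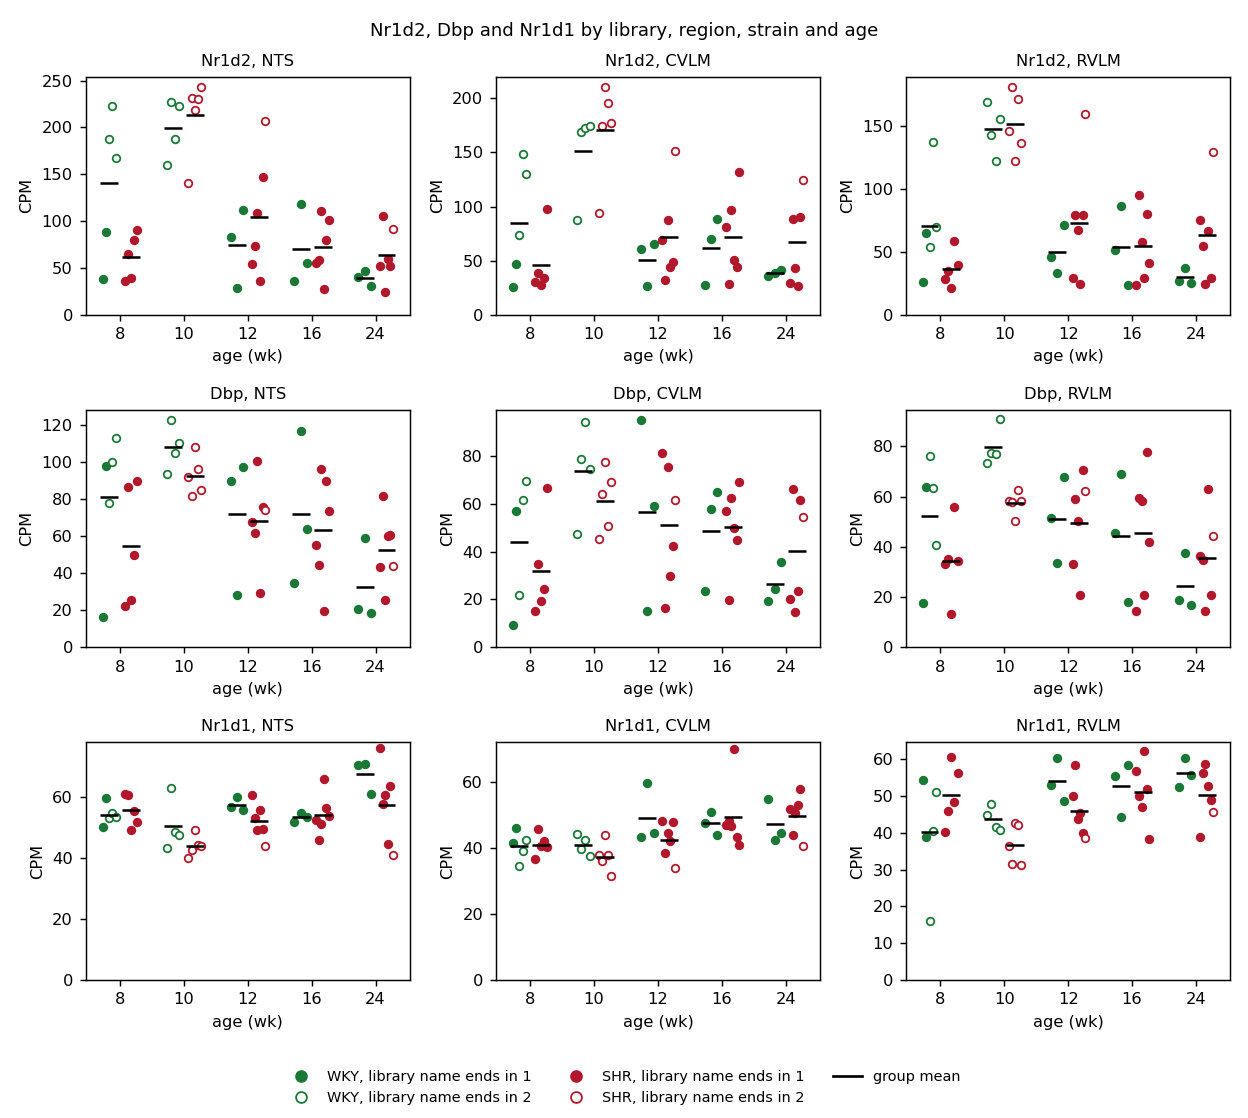
Levels in CPM (vertical axis) of Nr1d2, Dbp and Nr1d1 in each nucleus by age, with 1 point per library; colour gives the strain, open points have number 2 at the end of the library name, and bars are group means. Nr1d2 in the NTS reaches 243 CPM at 10 wk, where all libraries carry number 2, and the number-2 WKY libraries at 8 wk hold 167 to 223 CPM, while Nr1d1 stays between 39.9 and 76.3 CPM in the NTS.

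Between nuclei 18 of 30 values were called, mostly in 1 direction, with higher levels in the NTS. The comparison was made within rats, in 1 model of all libraries. NTS and CVLM differed in 6 of 10 members (65.4% of all genes), NTS and RVLM in 8 of 10 (72.3%), and CVLM and RVLM in 4 of 10 (53.8%), close to or below the share of genes at large. Of the 14 calls that involved the NTS, 12 had the NTS higher and the 2 of Cry2 had it lower. The direction of the calls over all genes is not given here, so this direction is not read as particular to the members.

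Per2, Per3 and Arntl carried the largest differences. Per2 exceeded its CVLM level in the NTS by 0.42 (SE 0.06) and its RVLM level by 0.56 (SE 0.06) on the log2 scale, with medians of 12.5, 8.68 and 7.92 CPM in the 3 nuclei. Per3 followed with 0.34 (SE 0.05) and 0.52 (SE 0.05). Arntl was higher in the NTS by 0.44 (SE 0.05) over the CVLM and 0.27 (SE 0.05) over the RVLM, and it was lower in the CVLM than in the RVLM by 0.18, a difference of -0.18 (SE 0.05, adjusted p = 0.00467, edgeR). Its medians over 46 libraries were 24.4 (NTS), 15.6 (CVLM) and 18.3 CPM (RVLM). Cry2 went the other way, lower in the NTS with differences of -0.16 (SE 0.03) from the CVLM and -0.22 (SE 0.03) from the RVLM. Dbp was higher in the NTS by 0.36 (SE 0.12) and 0.32 (SE 0.12). Clock, Cry1 and Nr1d2 exceeded their RVLM levels in the NTS by 0.23, 0.34 and 0.29, and their NTS to CVLM differences of 0.10, 0.22 and 0.16 did not pass the test. Nr1d1 was higher in NTS than CVLM by 0.17 (SE 0.04) and lower in the CVLM than in the RVLM, at -0.14 (SE 0.04). Per2 and Per3 were higher in the CVLM than in the RVLM by 0.14 and 0.18. For Per1 no difference between nuclei passed the test, with 0.19 (SE 0.13) for NTS and CVLM, 0.07 (SE 0.13) for NTS and RVLM and -0.12 (SE 0.13) for CVLM and RVLM.

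With the library number allowed to act differently in each nucleus, 11 of 30 region differences passed. The share of all genes called in that fit is not given here. The differences of Arntl, Per2, Per3, Cry2, Nr1d1 and Dbp between NTS and CVLM passed under all 6 other settings, and so did those of Arntl, Per2, Per3 and Cry2 between NTS and RVLM.

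**Figure D4:**
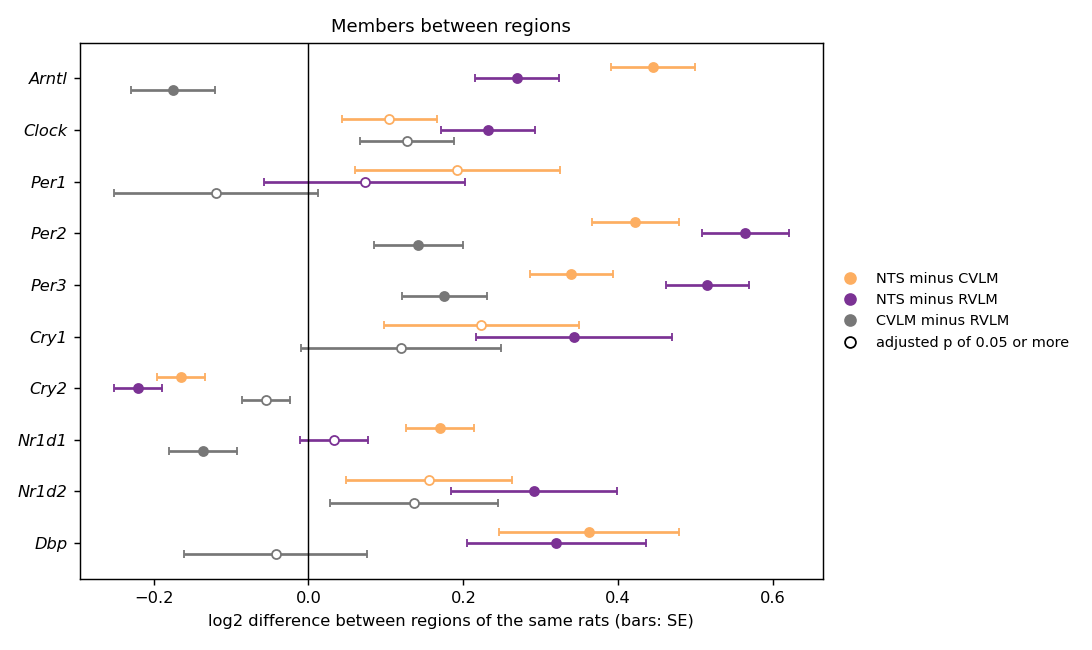
Differences between nuclei in log2 units (horizontal axis) for the 10 clock genes, from the model of all libraries; points are estimates and bars 1 SE. Per2 and Per3 lie 0.34 to 0.56 above 0 for the NTS against both other nuclei, Cry2 lies below 0 at -0.16 and -0.22, and Per1 lies within 2 SE of 0 for every pair of nuclei; open points did not pass the test.

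Rats of the same strain and age were then compared, in the joint fit of the nuclei. All 10 members passed this test (adjusted p from 9.14e-07 for Nr1d2 to 0.0263 for Per1, edgeR), beside 63.3% of all genes. By the size of the F value, Nr1d2 lay above 97.6% of genes, Clock above 91.4%, Dbp above 90.9% and Cry1 above 88.3%. The other 6 members lay between 43.7 and 71.6%. Among WKY rats at 8 wk and SHRs at 12 and 24 wk, rats of the same group differed in library number. Differences between rats of a group therefore include any difference by that number, and Nr1d2 and Clock were the members called for it. Their shares in this ranking were not separated.

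The spread among rats of 1 group set the members apart. The biological coefficient of variation, the spread that counting noise does not account for, was 43.5 to 55.6% for Cry1, Dbp and Nr1d2, above 92.5 to 96.6% of genes in the same nucleus. For Cry2 it was 11.2 to 12.7% and for Nr1d1 13.2 to 19.4%, where the median gene had 19.5, 18.2 and 21.4% in NTS, CVLM and RVLM. Over all 46 rats, Dbp ran from 16.1 to 123 CPM (NTS), 9.23 to 95.1 CPM (CVLM) and 13.2 to 90.8 CPM (RVLM). Cry1 ran from 2.28 to 20.9 CPM in the NTS, and Cry2 only from 71.0 to 134 CPM.

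To compare rats across nuclei, each value was taken on the log2 CPM scale as a deviation from the mean of its strain and age. That mean took in both library numbers. In groups of mixed number the deviations therefore keep any difference by number, also in the splits by number below. Over 46 rats, the deviations of Dbp in the NTS went with those in the CVLM (Pearson r = 0.68, permutation p = 0.00012; Spearman rho = 0.65, p = 0.00011) and in the RVLM (r = 0.63, permutation p = 0.00046; rho = 0.54, p = 0.0018). Those in the CVLM and the RVLM did not show a relation (r = 0.15, permutation p = 0.39; rho = 0.0092, p = 0.96). Without the 2 rats farthest from the median the 3 values were 0.67, 0.53 and -0.018. Among the 32 rats of number 1 they were 0.70, 0.65 and 0.16, and among the 14 of number 2 they were 0.53, 0.050 and -0.070, so that the NTS to RVLM relation was not seen within number 2. Nr1d2 gave 0.68, 0.72 and 0.21 over all rats (permutation p = 5e-05, 2e-05 and 0.26; rho = 0.67, 0.64 and 0.096, p = 9e-05, 6e-05 and 0.60). Its values were 0.60, 0.70 and -0.040 within number 1, 0.88, 0.71 and 0.69 within number 2, and 0.64, 0.65 and 0.21 without the 2 farthest rats. Nr1d2 was called for the number in every nucleus, so this split does not free its values of that difference. Cry1 gave 0.59, 0.70 and 0.082 (permutation p = 0.00074, 9e-05 and 0.64; rho = 0.56, 0.66 and 0.076, p = 0.00088, 0.00012 and 0.66). Its values were 0.59, 0.71 and 0.021 within number 1, 0.58, 0.34 and 0.59 within number 2, and 0.56, 0.59 and 0.14 without the 2 farthest rats.

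For genes at large the median r between the nuclei of 1 rat was 0.32 for NTS and CVLM, 0.25 for NTS and RVLM and 0.20 for CVLM and RVLM over 13116 genes. Dbp lay above 97.2, 97.0 and 41.6% of them and Nr1d2 above 97.2, 99.6 and 51.6%. In all, 30 relations between nuclei, 27 with Arntl and 27 with Dbp were computed, and the permutation p-values are not adjusted.

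Within a nucleus, the deviations of Dbp, Cry1 and Nr1d2 were the most alike among the members. Over 46 rats the deviations of Dbp and Cry1 correlated with r of 0.93 (NTS), 0.94 (CVLM) and 0.87 (RVLM), and those of Dbp and Nr1d2 with 0.82, 0.83 and 0.85. Within the 14 rats of number 2 the values were lower outside the CVLM, at 0.41, 0.87 and 0.49 for Cry1 and 0.48, 0.82 and 0.55 for Nr1d2, against 0.95, 0.95 and 0.89 and then 0.87, 0.85 and 0.92 within number 1. Nr1d1, which shares the E-box control of the loop with Dbp, gave low or negative values with it: -0.033, -0.11 and -0.45. For Per2 and Dbp the values were -0.067, 0.13 and -0.086. Per3 lay between, with 0.51, 0.54 and 0.52 for its relation to Dbp. Those values were 0.59, 0.50 and 0.49 within number 1 and 0.22, 0.77 and 0.77 within number 2. These correlations share the libraries and their scaling and are given as descriptions.

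The relation to Arntl, which cycles out of phase with Dbp and the Nr1d genes in clock tissues, had the same sign as that among the 3 genes. Cry1 correlated with Arntl at 0.55, 0.42 and 0.46 in the NTS, CVLM and RVLM (permutation p = 0.0013, 0.010 and 0.0019; rho = 0.54, 0.36 and 0.48, p = 0.0013, 0.026 and 0.0024). Dbp did so at 0.52, 0.36 and 0.37 (permutation p = 0.0042, 0.021 and 0.032; rho = 0.45, 0.31 and 0.34, p = 0.011, 0.060 and 0.041). Nr1d2 gave 0.34, 0.30 and 0.43 (permutation p = 0.027, 0.058 and 0.0034; rho = 0.37, 0.30 and 0.47, p = 0.029, 0.056 and 0.0027). Within number 1 Dbp kept 0.56, 0.47 and 0.45 with Arntl, while within number 2 it had -0.014, -0.31 and -0.22, so the relation was not seen in the 14 rats of number 2. Cry1 gave 0.58, 0.49 and 0.46 within number 1 and 0.044, -0.091 and 0.51 within number 2, and Nr1d2 gave 0.42, 0.38 and 0.38 and then -0.15, -0.058 and 0.60. Without the 2 rats farthest from the median, Dbp gave 0.50, 0.29 and 0.27, Cry1 0.52, 0.32 and 0.43, and Nr1d2 0.40, 0.27 and 0.42. Per2 showed no relation to Arntl, at 0.062, 0.080 and -0.029 (permutation p = 0.68, 0.67 and 0.89; rho = 0.077, 0.028 and -0.084, p = 0.65, 0.86 and 0.64), and neither did Clock, its partner, at -0.10, 0.0027 and -0.14 (permutation p = 0.52, 0.98 and 0.36; rho = -0.18, 0.048 and -0.10, p = 0.27, 0.77 and 0.54).

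**Figure D5:**
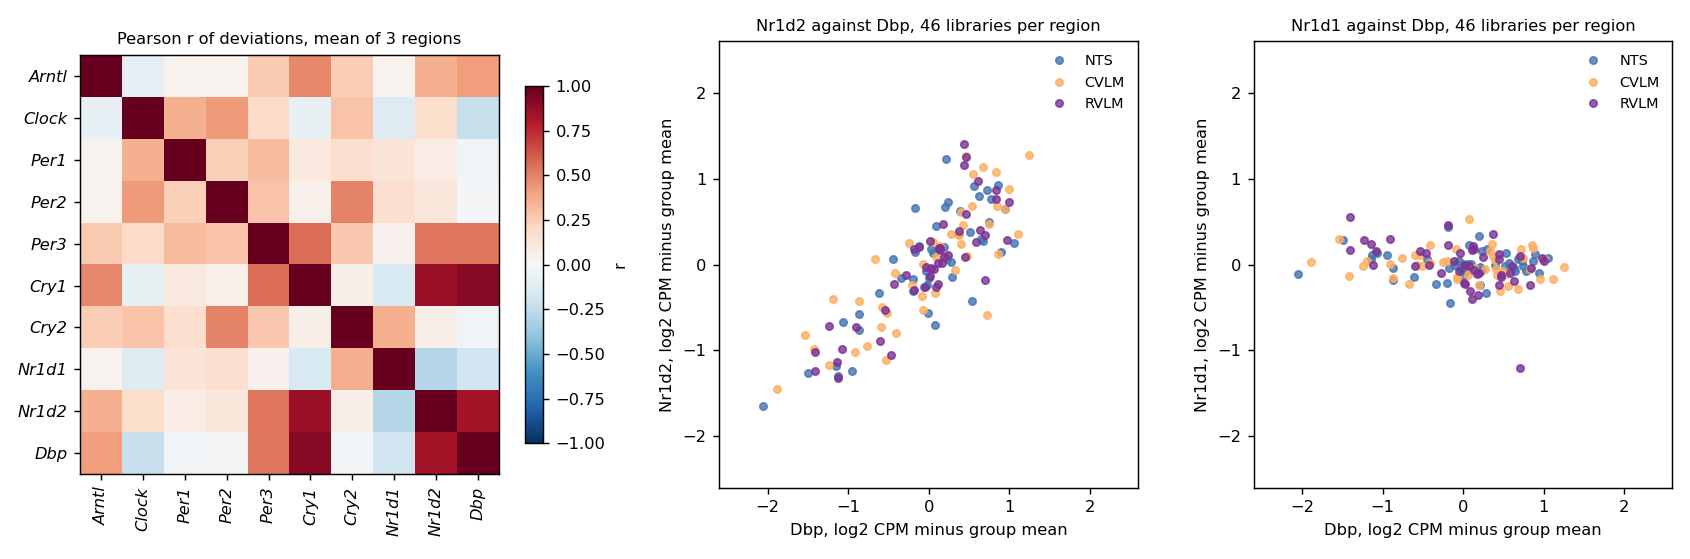
Pearson r between the deviations of the 10 clock genes from their group means (mean over the 3 nuclei, colour scale), with the deviations of Dbp in log2 units plotted against those of Nr1d2 and of Nr1d1, 1 point per library. Dbp, Cry1 and Nr1d2 form a block with mean r of 0.83 to 0.91, and Dbp and Nr1d1 show a mean r of -0.20.

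The genes most like Dbp over the 46 rats were not clock genes. By the mean of r over the nuclei, they were Taf10 (0.97), a subunit of the general transcription machinery, Habp4 (0.96), Get4 (0.96), Fam69b and Rnf187. Of 13115 genes compared, 611 had a mean r above 0.8 with Dbp, 611 with Cry1, 498 with Nr1d2 and 31 with Clock, and 0 with any of the other 6 members. None of the other clock genes was among the 100 genes most like Dbp. Cry1 was the closest member, and 110 genes were more like Dbp than Cry1 was. Of 20 clock genes beyond the members, 2 had a mean r above 0.8 with Dbp, 3 with Cry1 and 3 with Nr1d2. With Dbp the mean r of these 20 genes ran from -0.51 to 0.88, so some of them did follow it. For Arntl the most alike were Tent2 (0.76), Nsun2 (0.75), Acss2 (0.75), Slc30a9 and Elac2, and the most unlike were Rhot2 (-0.57), Fuca1 (-0.50), Ctsd (-0.50), Slc39a7 and Gabarapl1.

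The same 3 members followed the leading component of the spread among libraries. The first principal component of the deviations of all 13116 genes held 28.8% of their variance in NTS libraries, 29.0% in CVLM and 24.0% in RVLM libraries. It correlated with Dbp at 0.91, 0.96 and 0.88, with Cry1 at 0.92, 0.95 and 0.91 and with Nr1d2 at 0.90, 0.87 and 0.89. Per3 (0.53, 0.53 and 0.60) and Arntl (0.54, 0.44 and 0.51) followed it in part. Nr1d1 (-0.085, -0.21 and -0.27) and Per2 (0.12, 0.13 and 0.051) did not. Its correlation with log2 depth was -0.056, 0.20 and 0.21, and 7.68, 6.93 and 6.06% of all genes passed 0.8 in size with it. Clock followed the second component in the NTS (0.86) and the CVLM (-0.85), where the sign of a component is arbitrary. In the RVLM it did so less (0.48), behind Nr1d1 (0.66), Cry2 (0.62) and Per2 (0.59).

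Marker lists moved with these members to different degrees. The deviations of the summed level of 12 immediate-early genes, which respond to neuronal activity and handling, correlated with those of Dbp at 0.65, 0.75 and 0.63. They correlated with those of Cry1 at 0.58, 0.69 and 0.69. Of these 12 genes, 4 had a median under 1 CPM in each nucleus. A list of 12 glucocorticoid-responsive genes showed -0.053, 0.14 and 0.028 with Dbp. The summed level of 6 leptomeningeal markers, cells of the brain's covering, correlated with Clock at -0.56, -0.72 and -0.33. That sum ran from 166 to 634 CPM (NTS), 224 to 754 CPM (CVLM) and 262 to 1092 CPM (RVLM). Clock also correlated with the immediate-early sum, at -0.52, -0.59 and -0.36. With sums of 7 neuron and 6 astrocyte markers it correlated at 0.45, 0.44 and 0.29 and at 0.47, 0.41 and 0.31. The part of these cells and genes in the results was not tested.

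A list of 24 further clock genes, such as the kinases, ubiquitin ligases and nuclear receptors that tune the loop, gave 20, 21 and 21 tested genes in the NTS, CVLM and RVLM. For the strain difference averaged over ages, 2, 3 and 0 of them were called, beside 11.2, 12.3 and 10.8% of all genes, with list medians of -0.0021, 0.059 and 0.054. Fbxw11, which helps to mark PER proteins for breakdown, was higher in SHRs by 0.47 (SE 0.16) in the NTS and 0.44 (SE 0.12) in the CVLM. Tef, a relative of Dbp that binds the same D-box, was higher by 0.22 (SE 0.07, adjusted p = 0.0232, edgeR) in the NTS. Ciart, a repressor of the activators, was lower in the CVLM, with a difference of -0.19 (SE 0.06, adjusted p = 0.0415, edgeR). The age test called 5, 5 and 2 of these genes in WKY rats, beside 12.5, 22.2 and 6.79% of all genes, and 8, 5 and 3 in SHRs, beside 18.7, 20 and 14.1%, with age 10 wk again tied to library number 2. The interaction called none by edgeR. Between rats, 15 of 20 were called, beside 63.3% of all genes. The nuclei differed in 10 (NTS and CVLM), 14 (NTS and RVLM) and 13 (CVLM and RVLM) of 20, beside 65.4, 72.3 and 53.8% of all genes.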

How the data were processed

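The libraries were RNA-seq libraries of 3 brainstem nuclei (NTS, CVLM, RVLM), punched from 46 female rats. The authors deposited expected counts per gene, 1 table for each nucleus, made by RSEM with STAR on the rat build rn6; the methods also name a batch adjustment (ComBat_seq), and whether the deposited tables carry it was not given in the sources used here. About 5% of the values (5.02, 4.95 and 4.88% in the NTS, CVLM and RVLM) were not whole, and all were rounded. Genes were kept when their largest regularised log value was at least 3.5, which left 13793, 13408 and 13411 genes, 13116 of them in all 3 nuclei.

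Groups were strain and age, as titled. Within each nucleus edgeR 4.0.16 (R 4.3.3; TMM scaling, robust quasi-likelihood fit) tested strain at each age and over ages, age within strain, and their interaction. A fit of all libraries with a term for each rat tested nuclei and rats, with the dispersion trend taken from every 5th gene. P-values were adjusted over all genes by the Benjamini-Hochberg method. Rats were separate animals; CPM used the same scaling, and correlations used log2 CPM with a prior count of 2, 100000 permutations within groups, two-sided. Alternatives were DESeq2 1.42.0, limma 3.58.1, other scaling and filters, the replicate number, the library number and leaving rats out. Scripts were tested on simulated data. At 5904581 to 17889417 counts a library, Per1 rested on 1 to 48 counts.

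The members and the lists were chosen with earlier results of these data known. Named genes were the members, further clock genes called for the mean strain difference, the 5 genes most like Arntl and most like Dbp, and the 5 least like Arntl. Genes that these rules name but the text does not are not reported here.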

Additional observations from a re-analysis of the deposited data

Results flagged for a closer look

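Of 210 groups of 4 to 6 rats (10 genes in 3 nuclei), 16 held a library whose gap to its nearest neighbour was large for the range of its group, against about 10.5 expected by chance at 1 in 20. No cause was tested for any of them.

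Nr1d2 gave 3. In the CVLM, WKY 10 wk replicate 1 held 87.8 CPM, the lowest, against 169 CPM in the next rat, and SHR 8 wk replicate 5, which has a conflicting age label, held 97.8 CPM against 38.4 CPM. In the NTS, SHR 10 wk replicate 1 held 141 CPM against 219 CPM. The same CVLM library of SHR 8 wk replicate 5 was also the highest in Per3, at 18.6 CPM against 9.61 CPM.

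Per1 gave 3, each from few counts. In the NTS, SHR 12 wk replicate 3 was lowest at 0.548 CPM (next 1.3 CPM) and SHR 24 wk replicate 5 highest at 2.95 CPM (next 1.63 CPM). In the RVLM, SHR 12 wk replicate 2 was highest at 2.23 CPM (next 1.10 CPM). For Per2, WKY 8 wk replicate 3 was lowest in the RVLM at 3.57 CPM (next 6.31 CPM), and SHR 16 wk replicate 2 was highest in the NTS at 16.4 CPM (next 12.8 CPM).

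For the activators, Arntl was highest in SHR 24 wk replicate 5 of the CVLM at 21.4 CPM (next 15.4 CPM) and in SHR 10 wk replicate 4 of the RVLM at 23.3 CPM (next 19.7 CPM). Clock was lowest in WKY 8 wk replicate 2 of the CVLM at 17.9 CPM (next 32.4 CPM) and highest in SHR 10 wk replicate 2 of the RVLM at 42.2 CPM (next 25.1 CPM). In the CVLM, Cry1 was lowest in SHR 10 wk replicate 1 at 10.8 CPM (next 14 CPM), Cry2 highest in WKY 8 wk replicate 4 at 123 CPM (next 113 CPM), and Nr1d1 highest in SHR 16 wk replicate 4 at 70.2 CPM (next 48.2 CPM).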

How the results depend on the processing

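Among 30 mean strain differences the 1 call became 0 with every gene of at least 1 count, with the replicate block and without number-2 libraries outside 10 wk, and 0 to 1 when 28 rats were left out in turn. The 2 calls at single ages became 1 with every gene of at least 1 count, with the library number as a term, without number-2 libraries outside 10 wk and without the 2 rats of conflicting label, and 1 to 3 with rats left out. The 4 age calls in WKY rats became 7 in DESeq2 and 2 to 6 with rats left out. The 5 in SHRs became 8 with the replicate block, 8 without number-2 libraries outside 10 wk, and 2 to 7 with rats left out. Both became 0 with the number as a term and 0 in number-1 libraries without 10 wk, and Nr1d1 in the CVLM of SHRs turned from -0.13 to 0.15 at 10 wk under the number term. The 18 region calls became 11 with the number as a term. With the library component as a term, added after the data were seen, the counts became 14 (single ages), 16 (age, WKY), 12 (age, SHR) and 8 (interaction), while the component holds within-group spread only. It was drawn from these same libraries, and Dbp, Cry1 and Nr1d2 correlated with it at 0.87 to 0.96, so the term takes up their own spread. The share of all genes called under the settings of this paragraph is not given here. These counts are therefore not read as results about the members. The interaction stayed at 0 with each of the 28 rats left out, and the 10 calls between rats became 8 to 10 under 6 other settings. The cause of these shifts was not tested.

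No label ties rats of the same replicate number to each other. Their deviations correlated at -0.33 to 0.55 over 54 pairs (median 0.15), each a WKY rat and an SHR of the same age and replicate number in 1 nucleus. Of these, 32 pairs were above 0.1, and in 22 pairs the WKY rat correlated best with the SHR of its own replicate number. This hint of pairing did not hold in every pair, so the replicate block was not used for the values reported. Of 285 values of 57 correlations (Spearman, another prior count or scaling, number 1 alone, or without the 2 farthest rats), 264 moved by less than 1 standard error; relations that changed sign within number 2 are not among them. Leaving rats out of the fit of all libraries was not run. Depth limits Per1 most, at 1 to 48 counts a library.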
